A study of Rattus norvegicus with 10 samples.

Results

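Immediate early genes were described in the livers of 10 rats, across every probe set that the platform annotation assigns to exactly 1 of the genes Fos, Jun, Junb, Egr1, Myc, Gadd45b, Btg2, Ier2, Klf6 and Dusp1. Of these 10 genes, 9 were found, on 15 probe sets, among 14217 genes with such a probe set; no value is given for Btg2. All animals were of the Wistar/ST stock and ate a high-fat diet for 7 weeks. By gastric probe, after an overnight fast, a dose of 500 mg mulberry leaf powder per kg and day went to 5 rats. On how many days of the week it was given is not clear from the labels. The dose of the 5 control rats was 0 mg per kg. For both groups 0.5% carboxymethylcellulose is given. Each rat's liver was measured on 1 Affymetrix rat genome array, and the values are linear intensities scaled between arrays. Neither age nor sex was used here. RNA came from pieces of whole liver, so fewer cells of a type and less RNA per cell cannot be told apart.

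Immediate early genes are transcribed within minutes of a growth factor, hormone, cytokine or injury signal, without new protein synthesis, and their mRNAs decay quickly. In liver they are best known for their burst after partial hepatectomy, when they precede the re-entry of hepatocytes into the cell cycle, and they also respond to feeding, inflammation and handling of the tissue. MAP kinases act on the serum response factor and its ETS partners, which bind the CArG box, and on CREB, which binds the cyclic AMP response element (CRE). Fos and Jun proteins pair to form AP-1, which in turn drives a later wave of genes.

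The promoters of 4 members are shown as examples. Of the motifs marked in them, Ier2 and Dusp1 carry the full CRE, Egr1 the CArG box and CRE half-sites, and Junb only a CRE half-site and a TATA box. Btg2, with a full CRE, and Klf6, with a CArG box, are not shown. Each sequence printed here is the 250 bases before the RefSeq transcription start on assembly GRCr8, 5′ to 3′ on the strand of the gene. Capitals mark the letters of the CRE (TGACGTCA), its half-site (TGACG, either strand), the CArG box and the TATA box (TATAAA).
Egr1, chr18:26736828-26737077, plus strand: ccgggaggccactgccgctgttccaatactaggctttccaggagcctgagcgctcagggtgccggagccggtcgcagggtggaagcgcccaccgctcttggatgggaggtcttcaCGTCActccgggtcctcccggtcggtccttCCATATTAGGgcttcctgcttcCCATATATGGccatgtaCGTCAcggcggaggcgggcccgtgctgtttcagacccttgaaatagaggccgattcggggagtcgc
Junb, chr19:40080876-40081125, plus strand: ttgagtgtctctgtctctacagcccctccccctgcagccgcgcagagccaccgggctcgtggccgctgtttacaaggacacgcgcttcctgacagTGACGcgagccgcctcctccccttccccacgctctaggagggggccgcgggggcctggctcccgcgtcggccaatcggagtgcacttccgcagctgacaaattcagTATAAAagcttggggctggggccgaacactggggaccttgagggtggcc
Ier2, chr19:40399123-40399372, plus strand: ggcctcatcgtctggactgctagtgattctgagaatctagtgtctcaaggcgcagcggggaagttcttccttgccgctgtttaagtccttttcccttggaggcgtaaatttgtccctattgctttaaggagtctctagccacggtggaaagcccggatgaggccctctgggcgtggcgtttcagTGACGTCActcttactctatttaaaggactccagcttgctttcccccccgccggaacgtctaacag
Dusp1, chr10:17184603-17184852, plus strand: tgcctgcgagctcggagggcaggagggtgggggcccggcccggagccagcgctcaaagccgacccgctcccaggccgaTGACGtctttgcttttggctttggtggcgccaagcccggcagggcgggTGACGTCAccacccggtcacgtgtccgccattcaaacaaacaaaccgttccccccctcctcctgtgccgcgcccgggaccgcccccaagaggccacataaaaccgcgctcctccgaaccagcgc
Entries were matched by symbol for 7 of the 10 genes, namely Junb, Egr1, Gadd45b, Btg2, Ier2, Klf6 and Dusp1, and not for Fos, Jun and Myc. The full CRE was found upstream of 3 of the 7 (Btg2, Dusp1 and Ier2), against 1.59% of all 33469 promoter windows of the same length, searched on both strands. The half-site, which lies within each full CRE, was found in 5 of 7, against 18.2% of windows. The CArG box was found in 2 of 7, against 1.5%; Egr1 held a pair of them, starting 105 and 83 bases before the start, and Klf6 held 1. The TATA box letters were found in Junb alone of the 7, against 12.9% of windows, the AP-1 letters (TGANTCA) in 0 of 7, against 6.34%, and the EGR letters (GCGNGGGCG) in Btg2 alone, against 4.29%. The CCAAT box (CCAAT, either strand) was found in 5 of 7, against 34.0%, and the E-box bound by MYC (CACGTG) in Dusp1, Gadd45b and Klf6, against 5.59%. These are matches of letters, not measured binding.

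The mean of log2(intensity + 16) was lower with mulberry for 6 of the 9 members and higher for 3, and 0 passed the test. Means of linear intensity were lower for 7, since those of Dusp1 go the other way. The largest differences were those of Myc, Gadd45b and Egr1, with log2 differences of -0.84, -0.65 and -0.61, while Jun, Klf6 and Dusp1 were slightly higher. Control rats 1 and 3 had intensities of several members above those of all other rats. The median difference over the 9 members, in log2(intensity + 16) of mulberry less control rats, was -0.24, against 0.0035 over the 10328 genes tested. A lower mean was found for 48.7% of all genes, and a mean at least 0.25 lower for 4 of 9 members against 4.24% of all genes. Fos is among these 4 and passed the filter only through the control group. Members also varied more between rats, with a median SD within groups of 0.55 against 0.24 over all genes. A difference of fixed size is therefore reached more easily by members, and the 2 shares are not like for like. With limma and Benjamini-Hochberg adjustment over 18625 probe sets, 0 members, and 0.0% of probe sets in either direction, reached an adjusted p under 0.05. Each member had an adjusted p of 0.9999. At an unadjusted limma p under 0.05 there were 2 members, both lower, where 0.658% of all genes were lower and 1.13% higher by that rule. Over all 18625 probe sets 325 met it. These shares lie below what a level of 0.05 would give if no gene differed, and the reason was not tested. The groups overlapped for every member; over all genes 0.145% did not overlap with mulberry lower and 0.174% with mulberry higher. Without control rats 1 and 3 together, 3 of 9 members had a lower mean, and the median difference over all 9 was 0.083. These rats were picked for their high values in the control group, so leaving them out can only raise the difference of a member that they lead, and no such removal was made in the mulberry group. Without control rat 3 alone, 4 of 9 had a lower mean, and the median over all 9 was 0.0026.

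**Figure D1:**
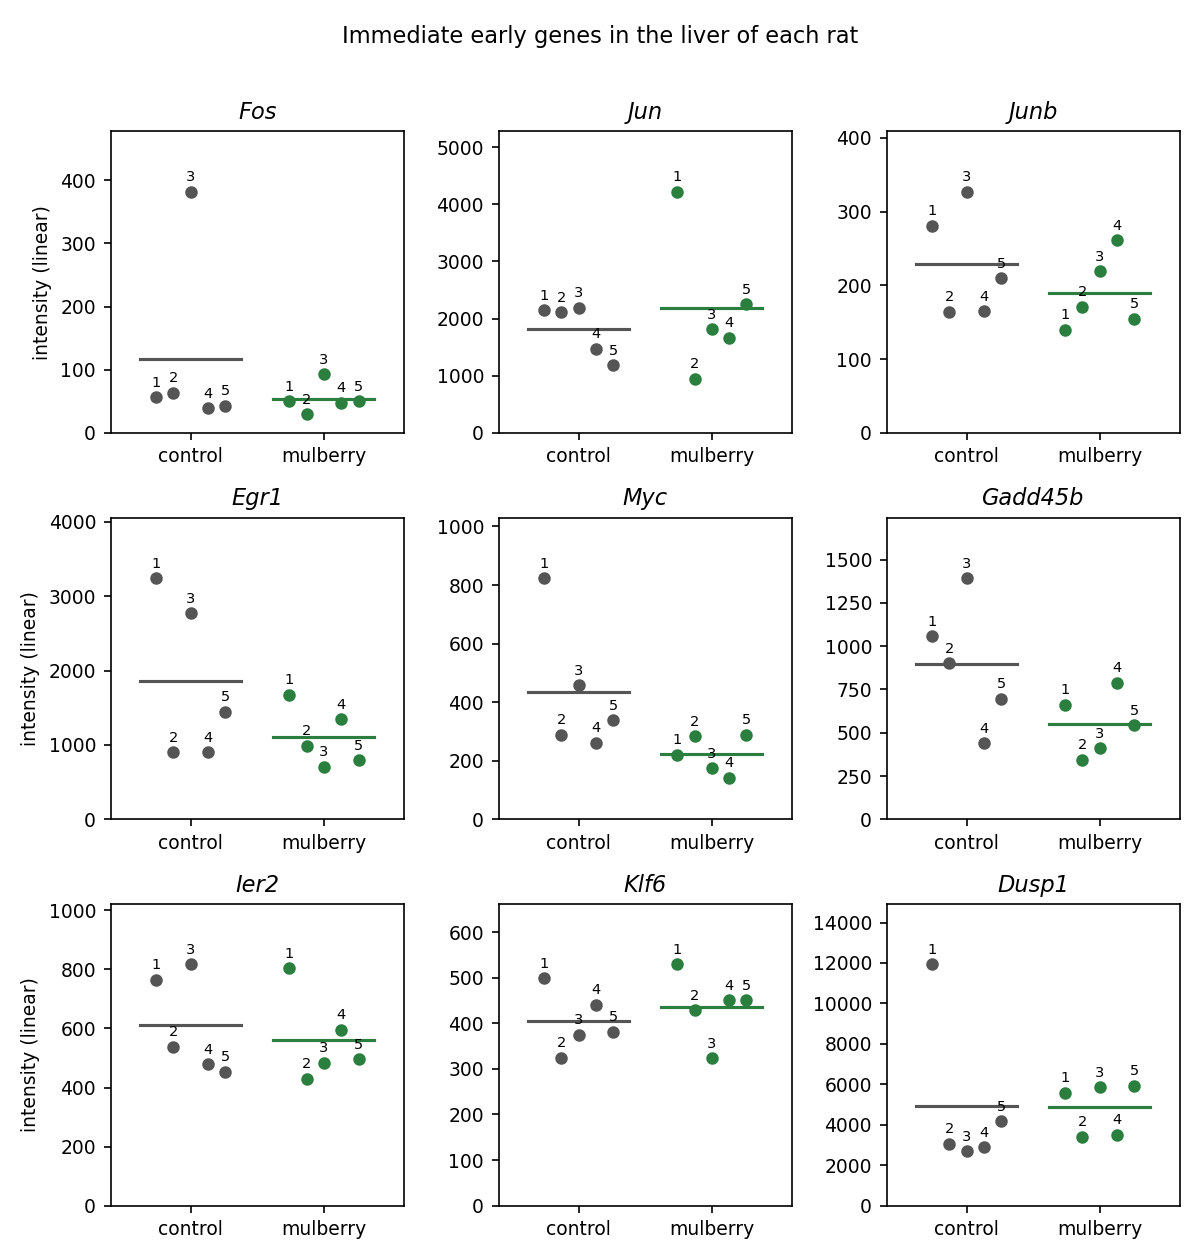
Linear intensity (vertical axes, each from 0) of the 9 members in each of 5 control (grey) and 5 mulberry (green) rats; numbers are rat numbers and bars are group means. Control rats 1 and 3 are the 2 highest for Junb, Egr1, Myc and Gadd45b, control rat 3 stands alone for Fos at 382 and control rat 1 for Dusp1 at 11929.

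No AP-1 subunit passed the test, and differences between the subunits were not tested. Fos, the partner that cannot bind DNA without a Jun protein, had intensities of 56.3, 63.5, 382, 38.7 and 43.3 in control rats 1 to 5 and of 49.7, 29.8, 92.9, 48.0 and 50.3 in mulberry rats 1 to 5. A single animal, control rat 3, was far above the rest, and the other 9 rats overlapped. The log2 difference was -0.48 ± 0.47 (SE, n = 5 per group) with limma, and 0.037 without control rat 3. The mulberry mean of 54.1 ± 23.3 (SD, n = 5) lay under the filter level of 61.1 on the intensity scale, so Fos entered the test only through the control group (mean log2 value 6.32, and 6.06 without control rat 3, against a filter of 6.27), and with it left out 5 of 8 members had a lower mean, with a median of -0.18. The second Fos probe set was too dim to be tested and went the other way in that animal, with 16.7 in control rat 3 and between 11.8 and 136 in all rats.

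Jun, the subunit that can also pair with itself, had intensities of 2144, 2113, 2191, 1469 and 1187 in control and 4221, 950.4, 1815, 1666 and 2247 in mulberry rats 1 to 5. Mulberry rat 1 was the highest and mulberry rat 2 the lowest of all animals, on this probe set and on both other Jun probe sets. The log2 differences of the 3 probe sets were 0.13 ± 0.32, 0.20 ± 0.31 and 0.25 ± 0.26 (SE, n = 5 per group), and the first turned to -0.15 without mulberry rat 1 and to -0.011 without control rat 5. Of these probe sets 2 carry the same source accession, so they are not independent measurements. Junb, a Jun relative that often restrains Jun in proliferation, had intensities of 281, 164, 327, 165 and 210.0 in control and 140.0, 171, 219, 261 and 155 in mulberry rats. Control rats 3 and 1 were the highest, mulberry rats 1 and 5 were below the lowest control rat, and the difference was -0.24 ± 0.22 (SE, 95% interval -0.71 to 0.23), or 0.044 without control rats 1 and 3.

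Among the other transcription factors, Egr1 and Myc had lower means and Klf6 did not differ beyond its error. Egr1, a zinc finger factor and a classical target of serum response factor, had intensities of 3246, 901, 2775, 903 and 1446 in control rats 1 to 5. In mulberry rats they were 1678, 988, 705, 1349 and 794. Control rats 1 and 3 lay apart at the top and the remaining 8 rats overlapped. The difference was -0.61 ± 0.36 (SE, 95% interval -1.40 to 0.18), and -0.012 without both of these rats.

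Myc, the bHLH factor of growth and ribosome production, had the largest difference of the members. Its intensities were 824, 289, 458, 261 and 339 in control and 221, 284, 174, 142 and 289.5 in mulberry rats. Control rat 1 was the highest, all 5 mulberry rats lay below the control median of 339, and 3 of them below the lowest control rat. The difference was -0.84 ± 0.29 (SE, 95% interval -1.46 to -0.22); its unadjusted p was under 0.05 and its adjusted limma p was 0.9999. It kept its direction with each rat left out in turn, at -0.98 to -0.58, and without control rats 1 and 3 together it was -0.43 and no longer met the unadjusted level.

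Klf6, a Kruppel-like factor induced by injury, varied least of the members. Its brightest probe set read 499, 324, 375, 441 and 381 in control and 529, 429, 323, 451 and 450.3 in mulberry rats, and the groups covered nearly the same range. The 3 probe sets of Klf6 differed by 0.11 ± 0.15, 0.082 ± 0.18 and -0.095 ± 0.20 (SE, n = 5 per group), so their signs disagreed, within their errors.

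The growth-arrest and feedback genes were split. Gadd45b, a stress sensor that acts on the p38 and JNK branch of MAP kinase signalling, had intensities of 1059, 900.4, 1394, 441 and 697 in control and 662, 345, 409, 788 and 545 in mulberry rats. Control rats 3 and 1 were again the highest, and all 5 mulberry rats were below the control median of 900.4. The difference was -0.65 ± 0.29 (SE, 95% interval -1.28 to -0.03), under the unadjusted level of 0.05. With 1 rat left out at a time it met that level in 4 of 10 cases and missed it in 6, namely without control rat 1, 2 or 3 or mulberry rat 2, 3 or 5, and it also missed it with the replicate block and without the variance trend. It ran from -0.88 to -0.47 over these 10 cases and was -0.30 without control rats 1 and 3. Ier2, a small nuclear protein, had intensities of 765, 538, 817, 479 and 454 in control and 805, 430.1, 484, 596 and 495 in mulberry rats. Here mulberry rat 1 joined control rats 3 and 1 at the top, and the difference was -0.11 ± 0.20 (SE), or 0.0026 without control rat 3.

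Dusp1, the nuclear phosphatase that switches MAP kinases off again, had intensities of 11929, 3066, 2681, 2879 and 4165 in control and 5595, 3405, 5871, 3513 and 5935 in mulberry rats. Control rat 1 stood far above all other animals, while control rat 3 was the lowest of all 10. All mulberry rats lay above the control median of 3066, yet the linear means were alike, at 4944 ± 3947 in the control and 4864 ± 1289 in the mulberry group (SD, n = 5 each). The log2 difference was 0.20 ± 0.35 (SE), and with 1 rat left out it ran from 0.043 (without control rat 3) to 0.58 (without control rat 1). It was 0.068 without control rat 4 and 0.091 without control rat 2. The unadjusted level of 0.05 was met in 1 of these 10 cases, without control rat 1, and an adjusted p under 0.05 in 0. On the second Dusp1 probe set control rat 1 was the highest too, at 1326, followed by mulberry rat 3 at 1236, and the difference was 0.088 ± 0.28 (SE).

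**Figure D2:**
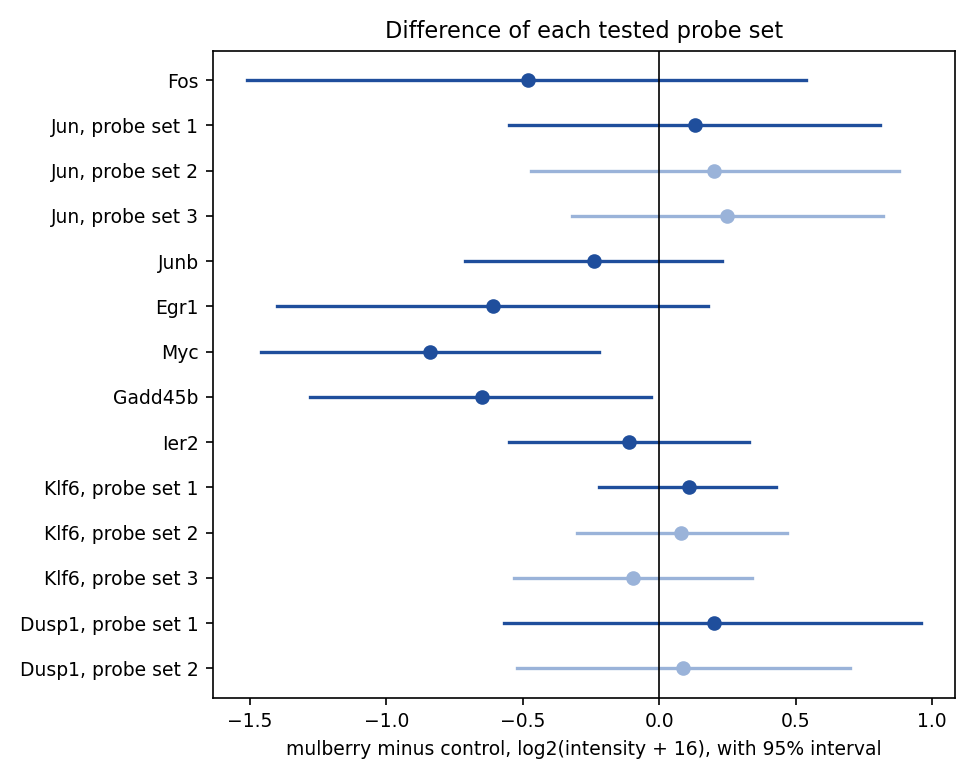
Mulberry minus control difference of log2(intensity + 16) (horizontal axis) with its 95% interval from limma for the 14 tested probe sets; dark points are the probe sets that represent a gene, light points its other probe sets. Only the unadjusted intervals of Myc and Gadd45b leave out 0.

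The same 2 control animals led most members, but not the same ones. Control rat 3 was the highest of 10 rats for Fos, Junb, Gadd45b and Ier2, 4 of 9 members, where it was the highest for 17.1% of all genes. Fos passed the filter through control rat 3, so its place in this count was fixed by the filter. The same limit holds for its share in the averaged value of that rat given below. Control rat 1 was the highest for Egr1, Myc and Dusp1, 3 of 9, against 9.96% of all genes. Both together took the top 2 places for Junb, Egr1, Myc and Gadd45b, 4 of 9 members, against 1.4% of all genes. This pattern was noticed in the values and carries no test. Averaged over the members, each in SDs from its mean over the 10 rats, control rat 1 stood at 1.20 and control rat 3 at 0.96, mulberry rat 1 followed at 0.42, and the remaining 7 rats lay between -0.74 and -0.057. Fos was ordinary in control rat 1 (-0.16 SD), and Dusp1 was low in control rat 3 (-1.08 SD).

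**Figure D3:**
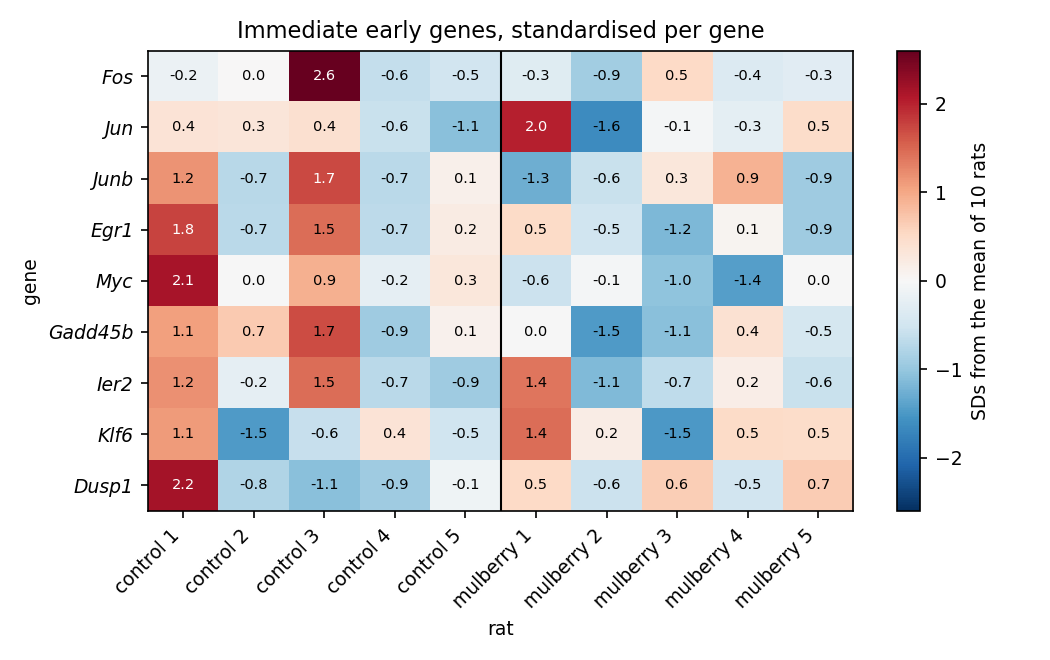
Each member's log2(intensity + 16) in each rat, in SDs from its mean over the 10 rats (red above, blue below; rows are genes, columns rats, the line parts control from mulberry). Control rat 3 reaches 2.64 for Fos, control rat 1 reaches 2.17 for Dusp1 and 2.14 for Myc, and mulberry rat 1 leads Jun and Klf6.

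The members varied more between animals than most genes did. The SD within a group, pooled over both groups on the log2 scale, had a median of 0.55 over the 9 members and 0.24 over all genes tested. Fos (0.89), Egr1 (0.71), Dusp1 (0.69), Jun (0.61), Gadd45b (0.55) and Myc (0.54) each had a larger SD than at least 94.2% of genes. Klf6 (0.24) sat at the middle, above 50.6% of genes. The spread was larger among control than among mulberry rats for 7 of 9 members, against 53.0% of all genes. Fos passed the filter through its high control value, which widens its control spread; without Fos it was 6 of 8 members, and the median pooled SD was again 0.55. It was 0.87 against 0.51 for Egr1 and 0.89 against 0.41 for Dusp1, while Jun was the clearest opposite case with 0.40 against 0.77.

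**Figure D4:**
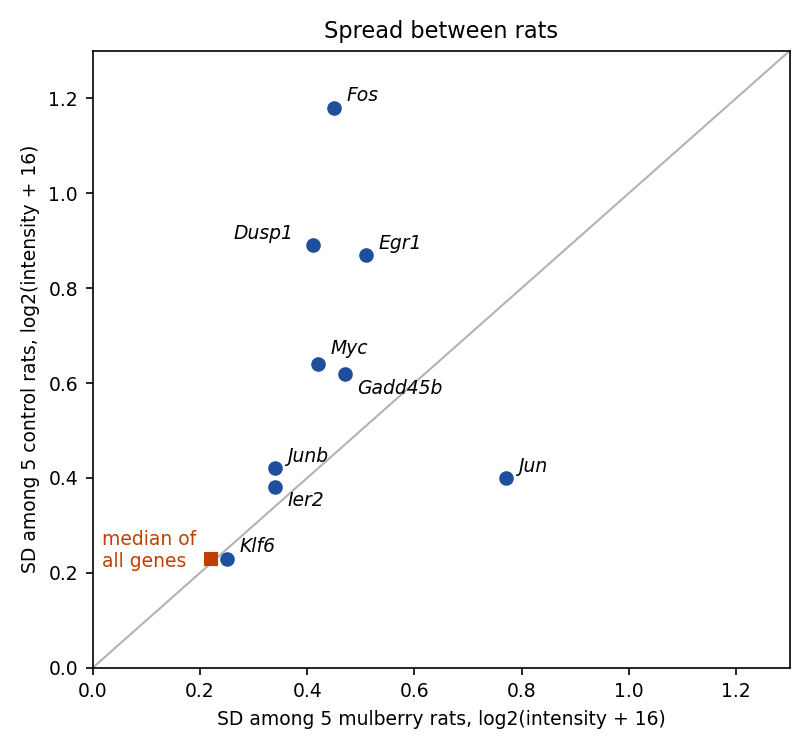
SD of log2(intensity + 16) among the 5 mulberry rats (horizontal) and the 5 control rats (vertical) for each member (circles) and the median over all genes (square); the line marks equal spread. Fos, Dusp1 and Egr1 lie far above the line, at control SDs of 1.18, 0.89 and 0.87, and Jun lies below it.

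Members covaried across animals only loosely. Of the 36 pairs of members, 32 had a positive Pearson correlation over the 10 rats, with a median r of 0.40. Over all pairs of the 10328 genes tested, 50.4% were positive and the median r was 0.004. These pairs share the same 10 arrays, and pairs that share a member are not independent. By permutation 8 pairs had an unadjusted p under 0.05 and 0 an adjusted p under 0.05 over the 36 pairs, the smallest being 0.102. Those 8 pairs had an r of at least 0.62 in size, which 9.9% of all gene pairs reached. Fos with Junb (r = 0.64) and with Gadd45b (r = 0.62) were among them. Fos passed the filter only through the control group, so its part in these counts was shaped by the filter. Without the 2 rats farthest from the median of Fos, these r were 0.16 and 0.88. Egr1 and Ier2 had the highest r, 0.81 (permutation p = 0.00605, adjusted p = 0.102), with a Spearman rho of 0.54 (permutation p = 0.114, adjusted p = 0.515), and r was 0.60 without the 2 rats farthest from the median of Egr1. Jun and Ier2 had r = 0.75 (permutation p = 0.00699, adjusted p = 0.102) and rho = 0.81 (permutation p = 0.00718, adjusted p = 0.258), and r = 0.58 without the 2 rats farthest for Jun. For Egr1 and Myc the relation rested on 2 rats: r was 0.69 (permutation p = 0.025, adjusted p = 0.167), rho 0.48 (permutation p = 0.166, adjusted p = 0.583), and r was -0.053 without them.

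Other immediate early genes gave small and mixed differences, and 0 of 30 tested passed an adjusted limma p of 0.05. Means were lower for 19 and higher for 11, with a median of -0.086, and 1 of the 30 had an unadjusted p under 0.05. That one was Klf10, a TGF-beta-induced Kruppel-like repressor, and it was higher. Its intensities were 1222, 1387, 1964, 1347 and 1871 in control and 2365, 1666, 1575, 2548 and 2386 in mulberry rats, where 3 mulberry rats exceeded every control rat and the difference was 0.43 ± 0.17 (SE). Ccn1, a matrix-associated YAP target, averaged 80.1 ± 23.8 in the control and 123 ± 47.1 in the mulberry group (SD, n = 5 each), a difference of 0.50 ± 0.25 (SE). In this wider list control rat 1 was the highest rat for 6 of 30 genes, against 9.96% of all genes. Control rat 3 was the highest for 5 of 30, near its share of 17.1% over all genes. Errfi1 and Zfp36 had both rats as the top 2, which held for 1.4% of all genes. Chosen after their values were seen, Ier3 reached 3981 in control rat 3 against 1089 to 2333 elsewhere, and Rhob reached 1125 in control rat 1 against 305 to 560.2.

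Of the remaining AP-1 and related factors 4 of 11 were tested, 2 with a lower and 2 with a higher mean (median -0.062). Jund, the constitutive Jun protein, differed by -0.22 ± 0.21 (SE). Atf3, a stress-induced partner of Jun proteins, had 309 in control rat 3 and at least 78.8 in the other rats, with mulberry rat 1 second, and its difference of -0.13 ± 0.31 was 0.13 without control rat 3 and -0.28 without mulberry rat 1. In the other Kruppel-like factors 8 of 11 had a lower mean (median -0.066), among them the vascular and epithelial factor Klf4 at -0.35 ± 0.20, or -0.21 without mulberry rat 4. Klf10, described above, belongs to this list too and was higher, at 0.43 ± 0.17.

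**Figure D5:**
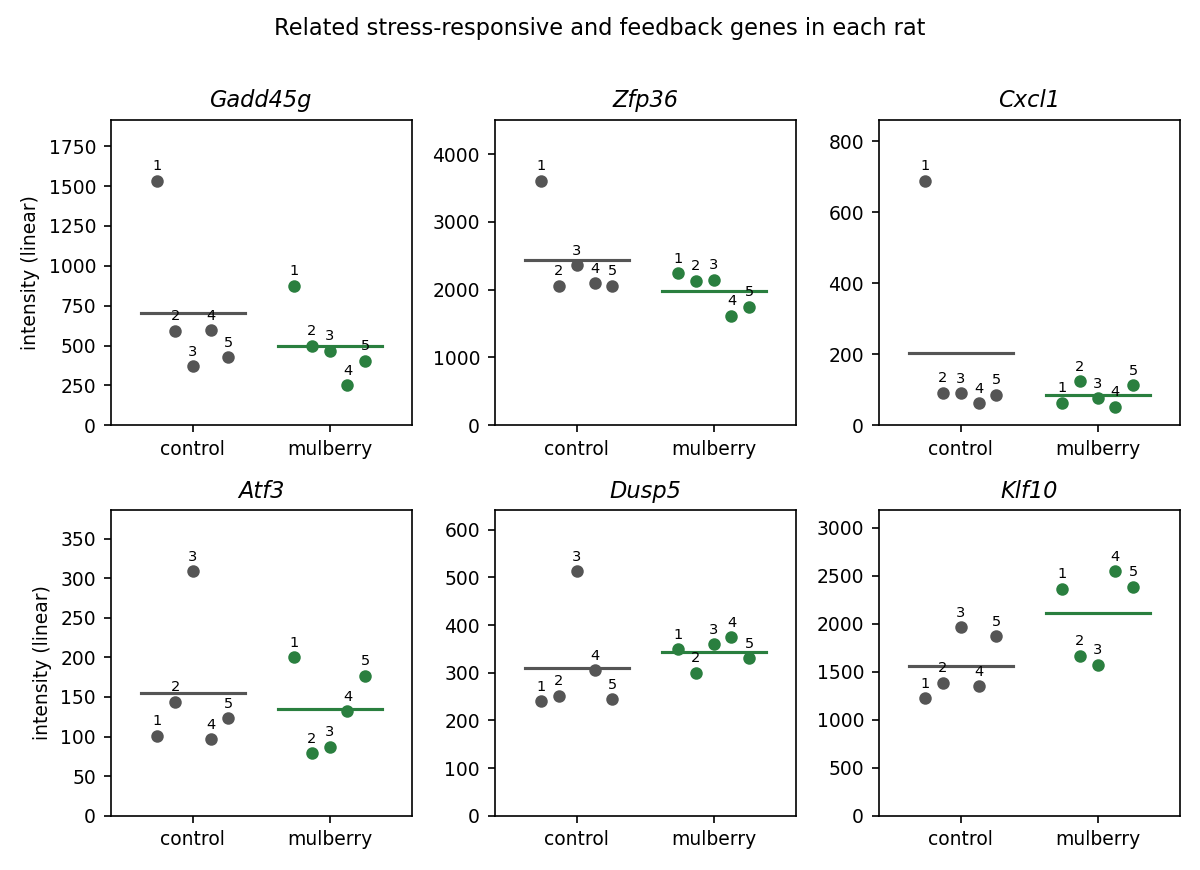
Linear intensity (vertical axes, each from 0) of 6 related genes, picked for display after their values were seen, in 5 control (grey) and 5 mulberry (green) rats; numbers are rat numbers and bars group means. Control rat 1 is the highest for Gadd45g, Zfp36 and Cxcl1, control rat 3 for Atf3 and Dusp5, and 3 mulberry rats exceed all control rats for Klf10.

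Upstream of the members, genes of the signalling cascade differed little. Serum response and CREB factors had a lower mean in 10 of 12 cases (median -0.053). Elk1, an ETS partner of serum response factor, averaged 207 ± 20.1 in the control and 161 ± 34.3 in the mulberry group (SD, n = 5 each), a difference of -0.35 ± 0.16 (SE); its groups did not overlap, by a narrow gap, with 189.8 as the lowest control and 189 as the highest mulberry value, and the difference was -0.21 without mulberry rat 4, which had 103. Crem, a relative of CREB, differed by -0.21 ± 0.11, or -0.11 without mulberry rat 2. In the MAP kinase cascade and its receptors 9 of 19 tested had a higher mean (median -0.00073), with the epidermal growth factor receptor gene Egfr at 0.21 ± 0.21 and the kinase Map2k1 at -0.091 ± 0.092. MAP kinase phosphatases and feedback inhibitors other than Dusp1 had a higher mean in 5 of 9 cases (median 0.088). Dusp5, a phosphatase of nuclear ERK, had 513 in control rat 3 and 239.9 to 374 in the other rats, with a difference of 0.19 ± 0.19 that ran from 0.12 without control rat 1 to 0.38 without control rat 3, and Dusp3 differed by 0.12 ± 0.11.

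Partners and relatives of the growth-arrest genes and of Myc did not pass either. Of 11 GADD45, BTG and DNA damage response genes 8 had a lower mean (median -0.11), with Tob2 at -0.23 ± 0.18. Gadd45g, a sister of Gadd45b, reached 1534 in control rat 1 and 251 to 876 in the other rats, and its difference was -0.40 ± 0.36, or -0.071 without control rat 1 and -0.62 without mulberry rat 1. Myc partners and antagonists were split, 5 higher and 5 lower (median 0.04), with the antagonist Mxd1 at 0.17 ± 0.13 and Mga at 0.13 ± 0.18. Myc target genes had a higher mean in 10 of 16 cases (median 0.032), with Nme1, a nucleoside diphosphate kinase, at -0.24 ± 0.16 and Rrp9, a factor of ribosomal RNA processing, at 0.21 ± 0.14. Of 11 factors acting on AU-rich mRNAs, the elements that shorten the life of immediate early transcripts, 7 had a lower mean (median -0.069). Zfp36, which speeds decay, had 3608 in control rat 1 and 1616 to 2359 in the other rats, and differed by -0.27 ± 0.16, or -0.12 without that rat. Elavl1, which stabilises such mRNAs, differed by -0.23 ± 0.10 (SE).

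The genes whose profile over the 10 rats was most like the members' mean profile were ranked by Pearson r among all tested genes other than members, and since they were chosen for r it carries no p. They were Gja1, a gap junction protein (r = 0.92), Cops9, Pcgf1, Myo1g, Errfi1, a feedback inhibitor of the epidermal growth factor receptor, Rbm15, Sf1 and Snx4 (r = 0.83). Gja1 had 1844 and 1792 in control rats 1 and 3 and 1007 to 1537 in the others; without these 2 rats, the farthest from the median of the profile, its r was 0.81 over 8 rats. For Pcgf1 it was 0.48 and for Errfi1 0.76. Errfi1 covered a narrow range, from 15963 to 18846. The most opposite profiles were those of Csk (r = -0.89), a kinase that restrains SRC, Slc25a14, Zbtb22 and Snapin (r = -0.88), and Csk had its lowest values, 1007 and 1056, in control rats 1 and 3. None of these 12 genes had an adjusted limma p under 0.05, and the unadjusted p were at least 0.205.

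Cell type markers and array measures were set beside the members. The hepatocyte markers of the liver label were bright in every rat, with Alb at 30278 ± 5907 in the control and 32628 ± 5586 in the mulberry group (SD, n = 5 each), and all 8 tested of 9 listed had a slightly higher mean with mulberry (median 0.061). Summed over these 8, intensity was 279179 in control rat 3 and 281075 and 293377 in mulberry rats 1 and 4. The other rats had 231586 to 242539.6. Summed intensity of the 8 tested of 10 macrophage markers was 22667 in control rat 3, the highest of all rats, against 13626 to 15541 in the other control rats and 10829.6 to 19463 in mulberry rats. Control rat 3 was the highest rat for 6 of these 8 markers, against 17.1% of all genes, and control rat 1 for 0, against 9.96%. The part of these cells in the values of control rat 3 was not tested. Cd68 differed by 0.39 ± 0.18 and Cd14 by -0.38 ± 0.14 (SE) in that list. The 2 tested neutrophil markers of 6 listed summed to 268 to 365 in control and 114 to 273 in mulberry rats. S100a9 differed by -0.77 ± 0.19 and S100a8 by -0.62 ± 0.27, or -0.36 without mulberry rat 3, its lowest rat. Both were highest in control rat 3, and their part in the members' differences was not tested. The mulberry mean of S100a8, 54.4 ± 24.0 (SD, n = 5), lay under the filter level of 61.1. S100a8 so entered the test only through the control group, with a mean of 86.3, and its lower value was favoured by the filter. Lymphocyte markers (5 of 9 tested) summed to 2002 to 2696 in control and 2033 to 3208 in mulberry rats, with Cd4 at 0.29 ± 0.18 and Cd74 at 0.26 ± 0.19. The log2 ratio of 3′ to 5′ Gapdh intensity, a measure of RNA integrity, was 0.34 in control rat 1 and -0.012 in control rat 3, the lowest of all rats, with means of 0.22 ± 0.16 in the control and 0.21 ± 0.13 in the mulberry group (SD, n = 5 each, two-sided exact permutation p = 0.913). For beta-actin the means were 1.77 ± 0.22 and 1.64 ± 0.27 (exact permutation p = 0.405). The lowest beta-actin ratios were those of control rat 3 (1.51) and mulberry rats 1 (1.49) and 4 (1.29), the rats with the highest hepatocyte sums. Gapdh ratios were 0.12 and 0.024 in mulberry rats 1 and 4, with 0.09 in control rat 4. How these measures bear on the members was not tested. Median intensity per array was 97.5 to 118, and the number of arrays limits the precision.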

How the data were processed

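The authors deposited 1 table of linear intensity values for 31099 probe sets on 10 arrays, 1 per rat. The submitters' processing notes name MAS5 and affy, with no version or role. The mean of each array after trimming 2% at each end was 500, so arrays were not scaled again. From the table log2(intensity + 16) was computed, which understates differences of dim probe sets. The 57 control probe sets and dim ones, up to the 40th percentile of mean log2 values (6.27, an intensity of 61.1), were left out, leaving 18625, of which 14 of the 15 member probe sets. Groups were compared by limma 3.58.1 in R 4.3.3 (lmFit, eBayes with a variance trend, two-sided) across all 18625, with Benjamini-Hochberg adjustment and a threshold of 0.05; the procedure was tested on simulated data. Where several tested probe sets named a gene, the one brightest on average stood for it, giving 10328 genes. Array measures were compared by exact permutation over 252 assignments (smallest p 0.00794), and member pairs by 100000 permutations. Tables and plots were made in Python 3.11.15 (scipy 1.17.1, numpy 2.4.6, matplotlib 3.10.9, pandas 2.3.3).

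Names came from the platform annotation; it gave 1 symbol for 20826 probe sets, several for 436 and none for 9780, controls aside. Of the former, 20758 matched RefSeq (GRCr8) by Entrez identifier. Of 278 entries in 22 gene lists, 248 matched. Some genes, such as Klf4, Klf10 and Zfp36, stand in more than 1 list, so counts of different lists are not independent. Members and lists were chosen with earlier results of these data known. Named were all members, the 2 genes with the lowest unadjusted p in each list, and the 8 genes most like and 4 most opposite to the members' mean profile. Alternatives were pseudocounts of 1 and 64, no filter and the 60th percentile, array weights, a replicate block, eBayes without the trend, a shift to equal medians, quantile normalization, the mean of a gene's probe sets, an adjusted p under 0.1, leaving out each rat, and leaving out control rats 1 and 3.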

Additional observations from a re-analysis of the deposited data

Results flagged for a closer look

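In groups of 5 rats, 28 groups of values (14 tested member probe sets in control and in mulberry rats) were searched for an animal far from the rest by Dixon's ratio of gap to range, taken on the log2(intensity + 16) scale, which marks about 1 in 20 groups by chance. It marked 2. Fos in control rat 3, at an intensity of 382, lay apart from the other control rats at 38.7 to 63.5, with a ratio of 0.81 on the log2 scale against a critical value of 0.71. This same value brought Fos past the filter, so it was not an independent find. The second probe set of Dusp1 in control rat 1, at 1326, lay apart from the other control rats at 524 to 597, with a ratio of 0.86 on the log2 scale. On the linear scale, an alternative chosen after seeing the data, the ratios were 0.93 and 0.91, and the first probe set of Dusp1 in control rat 1, at 11929, passed as well with 0.84.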

How the results depend on the processing

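Over 188 recomputed member differences, 181 kept their direction and side of the threshold, 7 reversed, and 0 passed an adjusted p of 0.05 (smallest adjusted limma p 0.999). With adjusted p this high the count rests on the sign alone, and a difference that shrank still counts as kept. Egr1, for example, went from -0.61 to -0.012 without control rats 1 and 3 together. Probe sets past the threshold numbered 0 under each alternative run. Without control rats 1 and 3 together, the count of members with a lower mean was 3 and their median difference 0.083, with Fos at 0.083, Ier2 at 0.16 and Junb at 0.044. Leaving out 1 rat at a time, the median ran from -0.36 to 0.0026 (without control rat 3), Fos from -0.68 to 0.037 (without control rat 3), Ier2 from -0.25 to 0.0026 (without control rat 3) and Jun from -0.15 (without mulberry rat 1; -0.011 without control rat 5) to 0.39. The cause of these reversals was not tested. The replicate block left the median at -0.24 and 0 probe sets past the threshold, with 286 instead of 325 at an unadjusted p under 0.05. Deviations of rats with the same number correlated at -0.33 to 0.096, and only control rat 5 matched the mulberry rat of its own number best. Low correlations cannot show that the numbers carry no pairing, so whether they pair the animals was not settled. Of the members, Fos, near the filter level, is limited most by signal over background.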

Other observations

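Gene groups that share signals with the immediate early genes gave no call with limma. Of 8 heat shock genes 6 had a higher mean (median 0.042), with the co-chaperone gene Dnaja1 at 0.12 ± 0.078 and the mitochondrial chaperonin gene Hspd1 at 0.11 ± 0.091 (SE, n = 5 per group). Of 10 inflammatory cytokine response genes 6 had a lower mean (median -0.10), with the NF-kB inhibitor gene Nfkbia at -0.22 ± 0.16. Cxcl1, a neutrophil-attracting chemokine, had an intensity of 689 in control rat 1 and 51.8 to 124 in the other rats. Its difference was -0.57 ± 0.50, and -0.0024 without control rat 1. Of 12 glucocorticoid response genes 10 had a lower mean (median -0.15). Among them the growth-restraining factor gene Ddit4 differed by -0.30 ± 0.21, and Igfbp1, a secreted binder of insulin-like growth factors, by -0.67 ± 0.41, or -0.31 without mulberry rat 3 and -1.06 without mulberry rat 1. The Igfbp1 intensity was 13607 in mulberry rat 1 and 1679.8 in mulberry rat 3.

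Among the other marker lists, endothelium had a higher mean in 5 of 7 cases (median 0.019; Vwf 0.22 ± 0.25, Emcn 0.22 ± 0.13) and stellate cells in 4 of 6 (median 0.14; Reln 0.20 ± 0.12, Col1a1 -0.32 ± 0.24). Bile duct markers were split, 1 and 1 (Krt19 -0.16 ± 0.26, Epcam 0.04 ± 0.19), and red blood cell markers were higher in 2 of 3 (Hbb 0.15 ± 0.14, Slc4a1 -0.30 ± 0.28). Apob differed by 0.16 ± 0.075 and Fgb by 0.063 ± 0.072.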
